A study of Mus musculus with 12 samples.

Results

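Expression of 10 genes of T cells and the PD-1 axis was examined in the inferior vena cava (IVC) of mice with an arteriovenous fistula (AVF) and of sham-operated mice. The genes were chosen by symbol, from the 55414 genes of the count table, and all 10 were found in it. They are Cd3d and Cd3e of the T cell receptor complex, the co-receptor genes Cd4 and Cd8a, Foxp3 and Ctla4 of regulatory T cells, Il7r for the interleukin 7 receptor, Pdcd1 for the inhibitory receptor PD-1, and Cd274 and Pdcd1lg2 for its ligands PD-L1 and PD-L2.

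RNA-seq of poly(A) RNA was available for 12 mice, with 1 library per mouse. All were wild-type C57BL/6 mice aged 10 weeks, and the IVC was collected on day 7 after the operation. The AVF group, 3 male and 3 female mice, had an infrarenal fistula made with a needle between the abdominal aorta and the IVC, and the sham group, 3 male and 3 female mice, had the same operation without the puncture. The tissue was the whole vessel segment, so fewer cells of a type and less RNA per cell cannot be told apart.

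T cells recognize peptides on MHC molecules through the T cell receptor, and the CD3 chains carry that signal into the cell. Activated T cells then display PD-1, which dampens receptor signalling when it binds PD-L1 or PD-L2. PD-L1 is found on many cells, among them endothelium, macrophages and adipocytes, and is induced by interferon, whereas PD-L2 is found mainly on dendritic cells and macrophages. T cells take part in venous remodeling after AVF creation, and the comparisons here ask which of these transcripts differed between the operations and between the sexes.

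The libraries held 15177881 to 22717423 counts. Levels are in normalized CPM, that is, counts brought to a common library size with the trimmed mean of M values, and 3 counts, taken as the least detected, were 0.127 to 0.324 normalized CPM. In AVF female 1 ribosomal RNA made up 46.0% of the counts, leaving 8196603 for other genes, and in the other libraries 2.39% to 12.6%. AVF male 2 and AVF female 2 stood apart by their hepatocyte genes, with summed levels of 4087 and 10783 normalized CPM over 9 markers, against 533 to 2705 in the other 10 libraries. In those 10 libraries, 2 of the 9 markers had more than 1 CPM in at least 2 samples. A gene passed when its adjusted p value was under 0.05 in edgeR's quasi-likelihood test. These p values measure the spread between mice.

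Interferon acts on Cd274 through STAT and IRF factors, so the promoters of the genes were searched for the letters TTCNNNGAA (a STAT site) and GAAANNGAA (an IRF site), on both strands. Windows from 250 bases before to 50 bases after the start were held by RefSeq for 9 of the 10 genes, Cd4 being the other, and each was placed on GRCm39 by an exact match. The start is that of RefSeq, and except for Cd3d the matches shown lie within the bounds that GENCODE M39 gives the gene, which begin further upstream. The 30 bases around each match are shown because they set Cd274 beside the other genes of the axis, and capitals mark the matched letters, printed 5′ to 3′ on the strand of the gene.
Cd274, IRF letters, chr19:29344751-29344780, plus strand: gactgggtggcTTCGGTTTCacagacagcg
Ctla4, IRF letters, chr1:60948007-60948036, plus strand: tgactcgaagcTTCAGTTTCaagttgagta
Cd3d, STAT letters, chr9:44892876-44892905, plus strand: ttcccttacacTTCCTAGAAttctgaacaa
Il7r, STAT letters, chr15:9530086-9530115, minus strand: agttcaggagcTTCAGGGAAtaccaagatg
Foxp3, STAT letters, chrX:7446572-7446601, plus strand: agagctctgttTTCCAAGAAcgggcattag
The STAT letters were in 8.33% and the IRF letters in 8.53% of the 32544 promoter windows of the same length, so either is common. The windows of Pdcd1lg2, Pdcd1, Cd3e and Cd8a held neither, which says only that these letters are not in those windows.

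In GENCODE M39 on GRCm39 all 10 are protein-coding genes. Cd274 (ENSMUSG00000016496) lies at chr19:29344529-29365495 and Pdcd1lg2 (ENSMUSG00000016498) downstream of it at chr19:29388319-29448882, both on the plus strand. Pdcd1 (ENSMUSG00000026285) lies at chr1:93966027-93980312 on the minus strand. Exons of Cd274 overlap Plgrkt and Gm36043, and those of Cd3e overlap Gm48719, in each case on the opposite strand, and the reads were counted by strand. Exons of Foxp3 overlap Flicr on its own strand, so that reads of the shared exons could be split between them.

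All of these transcripts but Cd274 and Il7r were scarce. Per kilobase of exon, the level in the sham group was highest for Cd274, at 5.68 ± 1.18 normalized CPM per kb (SD, n = 6), followed by Il7r at 1.12 ± 0.574 and Cd4 at 0.423 ± 0.159. Cd3e (0.208 ± 0.0602), Cd8a (0.171 ± 0.111), Cd3d (0.139 ± 0.0675) and Ctla4 (0.102 ± 0.0976) came next in normalized CPM per kb, and neighbours in this order differed by less than their spread. Pdcd1 (0.0657 ± 0.0525), Foxp3 (0.0269 ± 0.0177) and Pdcd1lg2 (0.0178 ± 0.0158) had the lowest sham levels per kb. In the AVF group the order was likewise led by Cd274, Il7r and Cd4, at 3.23 ± 1.56, 1.83 ± 0.470 and 0.382 ± 0.126 normalized CPM per kb. The plot of the 10 genes by sample shows these values, with Cd274 lower and Il7r higher in most AVF mice and the receptor genes mixed between the operations.

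**Figure D1:**
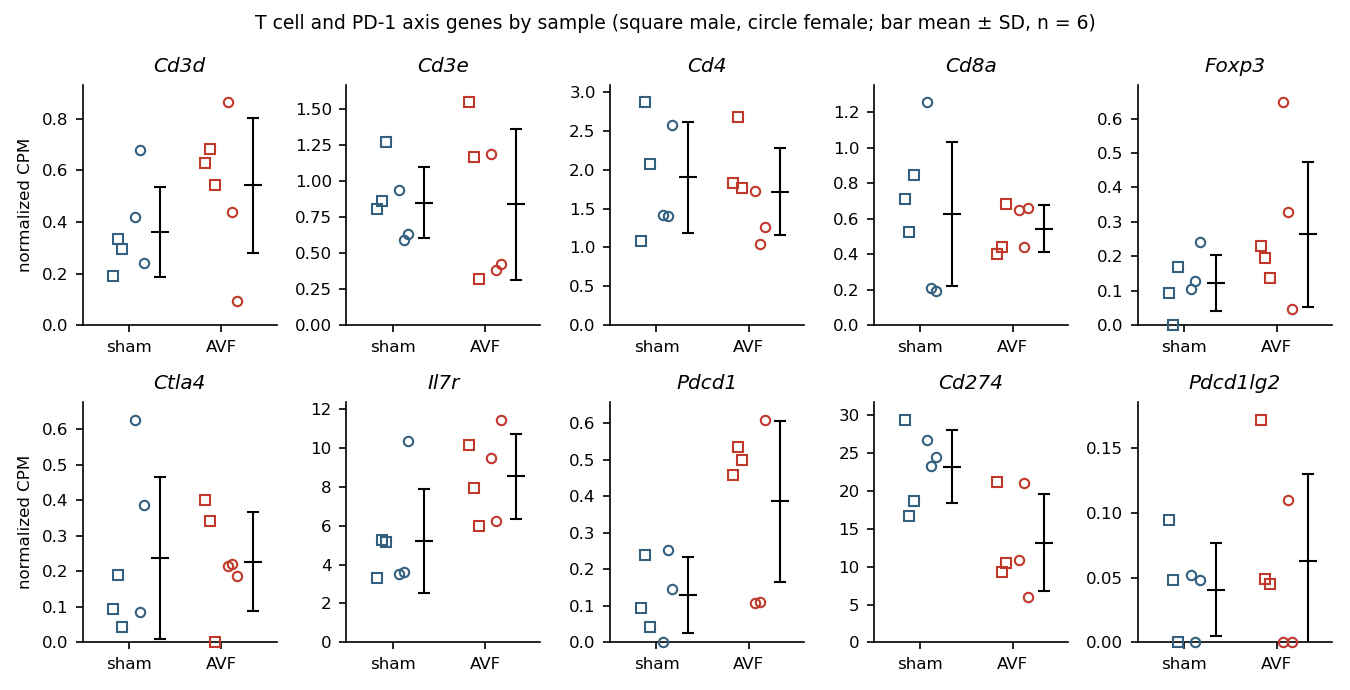
Normalized CPM (y axis, from 0, on a scale of its own for each gene) of the 10 genes in each sham and AVF library. Squares are male and circles female mice, and the bar to the right of each group is the mean ± SD over n = 6, cut at 0. The 2 groups overlapped for each gene, and Cd274 ranged from 16.7 to 29.4 in sham and from 6.05 to 21.1 in AVF.

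Of the 10 genes, 4 had more than 1 CPM in at least 2 samples (Cd3e, Cd4, Il7r and Cd274), and in edgeR's quasi-likelihood test 0 of the 4 passed between AVF and sham, whereas 13.8% of the 15912 genes tested passed. At an unadjusted p value under 0.05 they were 2, Cd274 and Il7r, where 5023 of the 15912 genes were. DESeq2 and edgeR's exact test each called 1, Cd274, where they called 3402 and 2006 of all genes. With the wider filter of more than 12 counts over the 12 samples, Cd3d, Cd8a, Foxp3, Ctla4 and Pdcd1 could be tested too, and 0 of 9 passed, against 8.36% of 22163 genes. There 3 of the 9 had an unadjusted p value under 0.05, the third being Pdcd1, where 5700 of the 22163 genes did. DESeq2 called 1 of the 9, where it called 3197 of all genes. Pdcd1lg2 had 12 counts in all, and was not tested under either filter.

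The T cell receptor genes did not pass. Cd3e, the epsilon chain that every T cell receptor needs, had 0.317, 0.796 and 1.55 normalized CPM as its lowest, median and highest value in the AVF group and 0.594, 0.832 and 1.27 in the sham group. AVF mice thus held both the lowest and the highest Cd3e values. The log2 fold change was -0.04 (SE 0.42), with an adjusted p value of 0.957 by edgeR's quasi-likelihood test. Cd3d, the delta chain, ranged from 0.0939 to 0.863 in AVF (median 0.587) and from 0.189 to 0.678 in sham (median 0.315), a log2 fold change of 0.53 (SE 0.47, edgeR adjusted p = 0.532). Cd3e counts were only 7 to 30 per library and those of Cd3d 2 to 16, so that changes of the size of these standard errors could not be resolved.

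The co-receptors did not separate the groups either. Cd4, which marks helper T cells and, at a lower level, some myeloid cells, had a lowest, median and highest level of 1.04, 1.75 and 2.68 normalized CPM in AVF and 1.09, 1.74 and 2.87 in sham. The 2 ranges nearly coincided, and the log2 fold change was -0.14 (SE 0.30, edgeR adjusted p = 0.779). Cd8a, of cytotoxic T cells, had 0.401, 0.543 and 0.680 normalized CPM in AVF and 0.194, 0.618 and 1.25 in sham. Its AVF values all lay inside the sham range, which Sham female 1 at 1.25 and the other 2 sham females, at 0.212 and 0.194, spanned. The log2 fold change of Cd8a was -0.21 (SE 0.44, edgeR adjusted p = 0.823).

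Transcripts of regulatory T cells were near the limit of detection. Foxp3, the transcription factor that defines them, had 1 to 6 counts in the AVF libraries and 0 to 5 in the sham libraries, and reached 3 counts in 5 of 6 AVF and 3 of 6 sham libraries. Its log2 fold change was 0.96 (SE 0.70, edgeR adjusted p = 0.431). Ctla4, the inhibitory receptor for CD80 and CD86, had 0 to 7 counts in AVF and 1 to 12 in sham, with a log2 fold change of -0.07 (SE 0.76, edgeR adjusted p = 0.972). For both genes libraries of the 2 operations were interleaved, and a difference was not detectable at this depth.

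Il7r, the receptor for interleukin 7 on resting T cells and on innate lymphoid cells, was higher in most AVF mice without passing. AVF male mice 1 to 3 had 10.1, 7.94 and 5.98 normalized CPM and AVF female mice 1 to 3 had 9.50, 6.25 and 11.5. Sham male mice 1 to 3 had 3.31, 5.25 and 5.17, and sham female mice 1 to 3 had 3.50, 3.60 and 10.4. Sham female 3 alone among the sham mice lay within the AVF range, and the other 5 were below all AVF mice. The means were 8.54 ± 2.19 in AVF and 5.20 ± 2.67 in sham (SD, n = 6), and the log2 fold change was 0.71 (SE 0.29, edgeR adjusted p = 0.110). Without Sham female 3 it was 1.04 (SE 0.21), and Il7r passed with an edgeR adjusted p value of 0.0122. Over all removals of 1 library it was 0.61 to 1.04, with edgeR adjusted p values up to 0.203.

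Pdcd1, which encodes PD-1, reached 3 counts in 4 of 6 AVF and 3 of 6 sham libraries. AVF male mice 1 to 3 had 0.458, 0.536 and 0.498 normalized CPM, and AVF female mice 1 to 3 had 0.108, 0.110 and 0.610. The sham mice had 0.0947, 0.239 and 0.0424 (males 1 to 3) and 0, 0.254 and 0.145 (females 1 to 3). The 3 AVF males and AVF female 3 were above all sham mice, and AVF females 1 and 2 lay among them. The AVF libraries held 46 Pdcd1 counts in all and the sham libraries 17. The log2 fold change was 1.55 (SE 0.67), with an unadjusted p value of 0.0373 and an adjusted p value of 0.164 by edgeR's quasi-likelihood test.

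Cd274, which encodes PD-L1, had 101 to 621 counts per library. AVF male mice 1 to 3 had 21.1, 9.35 and 10.5 normalized CPM, and AVF female mice 1 to 3 had 10.9, 21.1 and 6.05. Sham male mice 1 to 3 had 29.4, 16.7 and 18.6, and sham female mice 1 to 3 had 26.7, 23.3 and 24.4. In words, 4 of the AVF mice were below all sham mice, and AVF male 1 and AVF female 2 lay above Sham male 2 and Sham male 3. The means were 13.2 ± 6.37 in AVF and 23.2 ± 4.80 in sham (SD, n = 6).

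The log2 fold change of Cd274 was -0.82 (SE 0.28), with an unadjusted p value of 0.0128 and an adjusted p value of 0.0717 by edgeR's quasi-likelihood test. The call depended on the test, since the adjusted p value was 0.0366 with edgeR's exact test and 0.0236 with DESeq2 at nearly the same fold change. Without AVF male 1 the log2 fold change was -1.002 with an edgeR adjusted p value of 0.0353. Without AVF female 2 it was -1.004 with 0.0343. These 2 mice had the most Cd274 of the AVF mice. Over all removals of 1 library the log2 fold change was -1.004 to -0.67, with edgeR adjusted p values up to 0.138. Without both AVF male 2 and AVF female 2, the libraries with high hepatocyte genes, it was -0.93 (SE 0.30, edgeR adjusted p = 0.0802). Pdcd1lg2, which encodes PD-L2, had 0 to 3 counts in AVF and 0 to 2 in sham libraries, 7 and 5 in all, and no fold is given.

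The level of Cd274 was set beside that of brown fat markers in each library. The 7 markers, among them Ucp1, the uncoupling protein of thermogenic fat, and Cidea, a lipid droplet protein, were summed in each library. AVF male mice 1 to 3 had 217, 78.2 and 50.5 summed normalized CPM, and AVF female mice 1 to 3 had 148, 224 and 19.7. Sham male mice 1 to 3 had 881, 111 and 207, and sham female mice 1 to 3 had 1563, 933 and 473. AVF male 1 and AVF female 2, which had the most Cd274 of the AVF mice, also had the most of these markers, and Sham male 2 and Sham male 3, with the least Cd274 of the sham mice, had the least. Of the 7 markers, 4 fell in AVF (Cidea, Cox7a1, Cox8b and Otop1), where 5.13% of all genes tested fell, and Ucp1 had a log2 fold change of -2.83 (SE 1.01, edgeR adjusted p = 0.0790). The summed level of 6 white fat markers was likewise highest among AVF mice in AVF male 1 (2904) and AVF female 2 (2573). Among sham mice it was lowest in Sham male 2 (1321) and Sham male 3 (1126). Of these 6, 0 passed, where 13.8% of all genes passed, and their median log2 fold change was 0.12.

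Within the AVF group, log2 Cd274 and the log2 summed brown fat markers had a Pearson r of 0.911 (n = 6, exact permutation p = 0.00833, adjusted over 4 tests 0.0333) and a Spearman rho of 0.886 (exact permutation p = 0.0333, adjusted 0.0444). Without AVF male 3 and AVF female 3, the samples farthest from the median, r was 0.916. Within the sham group r was 0.904 (n = 6, exact permutation p = 0.0194, adjusted 0.0389) and rho 0.714 (exact permutation p = 0.136, adjusted 0.136). Without Sham male 2 and Sham male 3 it was 0.312, so the sham relation rested on those 2 mice. The plot of Cd274 beside the brown fat markers shows these values for the 12 libraries. The brown fat list was chosen with earlier results of these data known. The adjustment over 4 tests does not cover that choice, so these p values are a description only.

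With the log2 summed brown fat markers as a covariate, a model added after the data were seen, the log2 fold change of Cd274 was -0.11 (SE 0.22, edgeR adjusted p = 0.823). The covariate differed between the operations itself, and with it 754 genes passed in place of 2190. Of the 10 macrophage markers, for comparison, 0 passed with it. The part of brown fat in the result was not tested beyond these values. Among the genes that passed the CPM filter, those with the highest Pearson r with Cd274 over the 12 samples, after the mean of each operation was subtracted, were Mgme1 (0.970), mt-Nd3 (0.955), Plin5 (0.951), Gm37607 (0.940) and Chac2 (0.939). Mgme1 encodes a mitochondrial exonuclease, mt-Nd3 a subunit of complex I, and Plin5 a lipid droplet protein of oxidative tissue. The 7 brown fat markers had r values from 0.569 for Elovl3, which ranked 1962, to 0.914 for Cidea, which ranked 14, and Ucp1 ranked 312 (0.795).

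**Figure D2:**
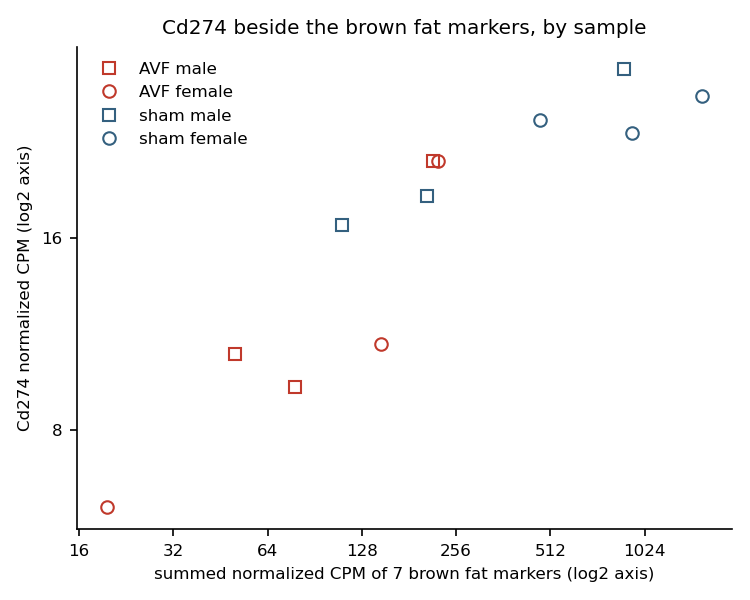
Cd274 (y axis, normalized CPM) against the summed normalized CPM of 7 brown fat markers (x axis), 1 point per library, both on log2 axes. Squares are male and circles female mice, red AVF and blue sham. AVF female 3 had the lowest of both, at 6.05 and 19.7, and among the sham points the rise rests on Sham male 2 and Sham male 3.

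Cd274 was also set against the endothelium that lines the vessel. Of 9 endothelial markers 0 passed in edgeR's quasi-likelihood test, where 13.8% of all genes passed, and their median log2 fold change was -0.0023. At an unadjusted p value under 0.05 there were 0 of them, where 5023 of the 15912 genes were. DESeq2 called 0 of them, where it called 3402 of all genes. As a log2 ratio of counts to Pecam1, an adhesion molecule of endothelium, Cd274 was -5.77 ± 0.742 in AVF and -5.02 ± 0.326 in sham (SD, n = 6). The difference was -0.75 (exact two-sided permutation p = 0.0498, adjusted over the 5 ratios examined 0.130). The lowest AVF ratio was -6.74 and the highest -4.75, against -5.41 and -4.66 in sham, so the groups overlapped.

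The balance among the T cell genes was compared by the other 4 ratios. The log2 ratio of Pdcd1 to Cd3e was -1.03 ± 1.38 in AVF and -2.87 ± 1.59 in sham (SD, n = 6), a difference of 1.84 (exact permutation p = 0.0606, adjusted 0.130). That of Foxp3 to Cd3e was -1.64 ± 1.06 and -2.84 ± 1.31, a difference of 1.19 (exact permutation p = 0.104, adjusted 0.130). Counts of 0 to 13 lie behind both numerators. The log2 ratio of Cd8a to Cd4 was -1.58 ± 0.618 in AVF and -1.77 ± 1.31 in sham (exact permutation p = 0.758, adjusted 0.758). Cd3e to Ptprc, the pan-leukocyte gene for CD45, had a log2 ratio of -7.04 ± 0.944 in AVF and -6.27 ± 0.480 in sham, a difference of -0.78 (exact permutation p = 0.0996, adjusted 0.130). Of the 5 ratios 0 passed after adjustment, and the smallest p value that 6 against 6 allows is 0.00216.

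Cd3d and Cd3e belong to a wider list of 22 T cell receptor signalling genes. Of these 14 could be tested, and 0 rose and 0 fell by edgeR's quasi-likelihood test, where 13.8% of all genes passed. The median log2 fold change was 0.06, against -0.01 over all genes. DESeq2 called none of the 14, and none had an unadjusted p value under 0.05. With the wider filter all 22 were tested and 0 passed, where 8.36% of all genes did. The median over the 22 was 0.16. The lowest adjusted p values there were those of Ubash3a (log2 fold change 1.70, edgeR adjusted p = 0.115) and Cd6 (1.57, edgeR adjusted p = 0.126). These 2 genes had 47 and 39 counts over the AVF and 18 and 15 over the sham libraries. Trac, the constant region of the alpha chain, had 4.43 ± 1.59 normalized CPM in AVF and 3.05 ± 1.33 in sham (log2 fold change 0.54, SE 0.31, edgeR adjusted p = 0.255). Lck, the kinase that starts receptor signalling, had 1.21 ± 0.430 and 1.43 ± 0.312 (edgeR adjusted p = 0.594). Summed over the list, AVF libraries held 21.2 to 29.1 normalized CPM and sham libraries 19.4 to 30.6. Of 10 cytotoxic genes tested, such as Gzma and Gzmb for granzymes and Prf1 for perforin, 0 rose and 0 fell, with a median of -0.17, and 0 had an unadjusted p value under 0.05 or were called by DESeq2.

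Among markers of other blood cells, those of macrophages and of leukocytes in general included genes that rose. Of 10 macrophage markers 8 rose, where 8.63% of all genes rose, and their summed level was 1177 to 1883 normalized CPM in AVF and 620 to 1002 in sham, without overlap. Of 8 general leukocyte genes 4 rose, whereas 0 of the 6 B cell markers tested passed, with 1 at an unadjusted p value under 0.05 and 1 called by DESeq2, and 0 of 6 neutrophil markers passed, with 0 at an unadjusted p value under 0.05 and 0 called by DESeq2. Of 7 markers of natural killer and innate lymphoid cells 0 rose and 1, Gata3, fell by edgeR's quasi-likelihood test. At an unadjusted p value under 0.05 there were 3 of the 7, where 5023 of 15912 genes were. DESeq2 called 3, where it called 3402 of all genes. Their median log2 fold change was 0.33. Over this list the summed level was 138 to 172 normalized CPM in AVF and 103 to 150 in sham. Without AVF male 2 and AVF female 2, 8 of the macrophage markers and 2 of the general leukocyte genes rose, where 911 of 15531 genes rose. Ptprc had a log2 fold change of 0.51 (edgeR adjusted p = 0.0671). The plot of the summed lists shows the T cell and B cell lists overlapping between the operations and the macrophage list apart.

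**Figure D3:**
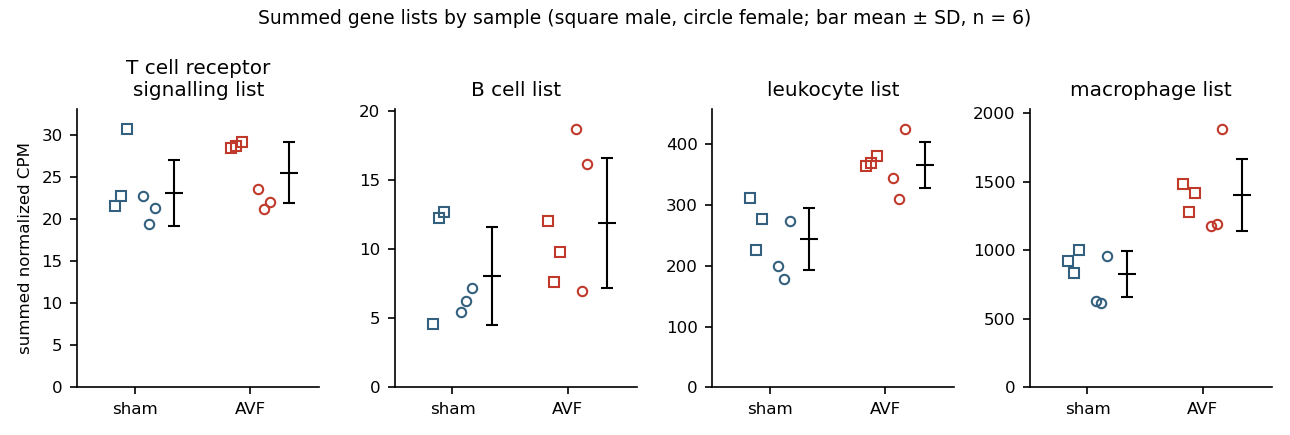
Summed normalized CPM (y axis, from 0, on a scale of its own for each list) of the lists for T cell receptor signalling, B cells, leukocytes and macrophages in each sham and AVF library. Squares are male and circles female mice, and bars are the mean ± SD over n = 6. Macrophage sums were 620 to 1002 in sham and 1177 to 1883 in AVF, and T cell sums 19.4 to 30.6 and 21.2 to 29.1.

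Among checkpoint and costimulation genes, 7 of the 20 tested rose and 0 fell, where 8.63% of all genes rose and 5.13% fell. Their median log2 fold change was 0.20, and the list includes Cd274. With the brown fat markers as a covariate 1 of the 20 passed, where 754 of the 15912 genes did. It was Cd276 (log2 fold change 0.71, edgeR adjusted p = 0.0472), while Cd200r1, Cd40 and Havcr2 had edgeR adjusted p values of 0.103, 0.133 and 0.175. Cd276, which encodes the PD-L1 relative B7-H3, rose from 8.21 ± 2.26 to 19.1 ± 4.19 normalized CPM (log2 fold change 1.22, SE 0.20, edgeR adjusted p = 0.00257). Havcr2, which encodes the inhibitory receptor TIM-3 of T cells and macrophages, rose by 1.28 on the log2 scale (SE 0.29, edgeR adjusted p = 0.0157). Cd40, through which helper T cells activate antigen-presenting cells, rose by 1.10 (SE 0.23, edgeR adjusted p = 0.0103), and Cd200r1, a myeloid inhibitory receptor, by 1.05 (SE 0.25, edgeR adjusted p = 0.0201), both on the log2 scale. The other 3 that rose, named after their values were seen, were Cd80 (0.96) and Cd86 (0.56), the ligands of CTLA-4 and CD28, and Lgals9 (0.35), for a ligand of TIM-3. Without AVF male 2 and AVF female 2, 4 of the 20 rose, where 911 of the 15531 genes tested rose. Havcr2 (1.11, edgeR adjusted p = 0.0543), Cd80 and Lgals9 no longer passed there. Leaving out AVF male 2 alone ended the call of Cd80 (edgeR adjusted p = 0.0525), and leaving out any single library but AVF female 1 ended that of Lgals9 (up to 0.0936). With edgeR's exact test Cd86 and Lgals9 did not pass (adjusted p = 0.0765 and 0.126). Cd28, Icos and Lag3, receptors displayed by T cells, had log2 fold changes of 0.16, 0.64 and 0.24 and did not pass.

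**Figure D4:**
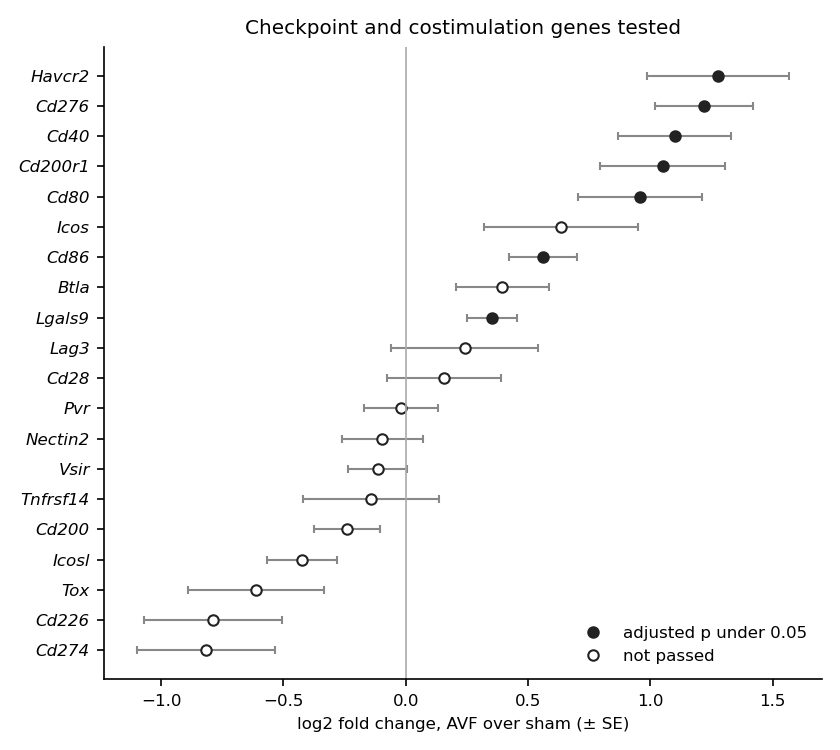
Log2 fold change of AVF over sham (x axis), with its SE, for the 20 checkpoint and costimulation genes tested, ordered by value. Filled points passed at an adjusted p value under 0.05 in edgeR's quasi-likelihood test. The 7 filled points lie at 0.35 to 1.28, and Cd274 is lowest at -0.82 without passing.

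Of 18 tested genes listed for the regulation of Cd274, for its protein or for PD-1 signalling, 2 rose, where 8.63% of all genes rose. They were Hif1a, for the hypoxia factor HIF-1 alpha (log2 fold change 0.61, SE 0.09, edgeR adjusted p = 0.00129), and Ifngr2, for a chain of the interferon gamma receptor (0.42, SE 0.09, edgeR adjusted p = 0.0109). In this list 0 genes fell, and the median was 0.15. Irf1, a factor of the IRF family whose letters are printed above for Cd274 and Ctla4, had 28.6 ± 7.08 normalized CPM in AVF and 38.6 ± 4.62 in sham (log2 fold change -0.43, SE 0.16, edgeR adjusted p = 0.0824). Ifng itself had 6 counts over the AVF and 13 over the sham libraries. Without AVF male 2 and AVF female 2, Hif1a passed and Ifngr2 had an edgeR adjusted p value of 0.05003. Ifngr2 did not pass with edgeR's exact test (adjusted p = 0.0578) or with the brown fat covariate (edgeR adjusted p = 0.157), under which Hif1a passed (edgeR adjusted p = 0.0330).

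Of 9 tested genes for helper, regulatory and co-receptor functions, 3 fell and 0 rose, where 5.13% of all genes fell and 8.63% rose. Among them were Gata3 (log2 fold change -1.07, SE 0.26, edgeR adjusted p = 0.0212) and Ikzf4 (-1.27, SE 0.37, edgeR adjusted p = 0.0408). Both encode transcription factors of helper or regulatory T cells, and Gata3 is also used by other cells, for example fat precursors and sympathetic neurons. Of 8 neuron markers 0 passed by edgeR's quasi-likelihood test, with 7 at an unadjusted p value under 0.05 and 6 called by DESeq2. Their median log2 fold change was -1.06, and their summed level was 109.9 to 728 normalized CPM in AVF and 298 to 1210.5 in sham. The part of neurons in the result was not tested. With the brown fat covariate Gata3 had an edgeR adjusted p value of 0.0522 and Ikzf4 one of 0.0472. Gata3 had 5.41 ± 2.04 normalized CPM in AVF and 11.3 ± 3.53 in sham. Ikzf4 had 1.25 ± 0.500 normalized CPM in AVF and 3.00 ± 1.49 in sham, beside 0.264 and 0.123 for Foxp3. Which cells held the Ikzf4 RNA was not tested. Without AVF male 2 and AVF female 2, 0 of the 3 passed, where 1230 of 15531 genes did. The edgeR adjusted p value was then 0.0708 for Gata3 and 0.0992 for Ikzf4. Leaving out any single library but AVF male 1, Sham female 1 or Sham female 2 ended the call of Ikzf4 (edgeR adjusted p up to 0.0774).

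Of all genes tested, 5.13% fell and 8.63% rose. For the cytokines of the common gamma chain, which nourish T cells, 1 of 10 genes tested fell and 0 rose. It was Il15ra, which presents interleukin 15 (log2 fold change -0.64, SE 0.17, edgeR adjusted p = 0.0295), and it did not pass without AVF male 2 and AVF female 2 (-0.65, edgeR adjusted p = 0.0855), nor without AVF male 2, AVF male 3, AVF female 3, Sham male 1, Sham female 2 or Sham female 3 alone (up to 0.0697). Il7, the ligand of the Il7r product, had 5.15 ± 1.61 normalized CPM in AVF and 5.33 ± 2.04 in sham. Of 12 tested genes for T cell homing 1 rose and 0 fell, where 8.63% of all genes rose, and their median log2 fold change was 0.05. Of 16 genes for antigen presentation 4 rose, where 8.63% of all genes rose, all of the MHC class II pathway, namely Ciita, its transcription factor (0.80), H2-DMb1 (0.52), H2-Ab1 (0.53) and Cd74 (0.50). Without AVF male 2 and AVF female 2, 0 of the 4 passed, where 1230 of 15531 genes did. Their edgeR adjusted p values were then 0.0696 (Ciita) to 0.148 (H2-Ab1). Leaving out 1 library left 0 to 6 genes of the list higher in AVF. Leaving out AVF male 2, AVF male 3, Sham male 1, Sham male 2 or Sham female 2 alone ended the calls of Cd74, H2-DMb1 and H2-Ab1 (edgeR adjusted p up to 0.0779, 0.0700 and 0.0887). Leaving out AVF female 2 ended those of H2-DMb1 and H2-Ab1, Sham female 3 those of Cd74 and H2-Ab1, Sham female 1 that of H2-Ab1, and Sham male 1 also that of Ciita (edgeR adjusted p = 0.0511). Class I genes such as B2m (-0.01) and H2-K1 (-0.05) did not pass, nor did the class II genes H2-Aa, H2-Eb1 and H2-DMa. With the brown fat covariate 0 of the 16 passed, where 754 of 15912 genes did.

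Genes whose pattern was most like that of Cd3e over the 12 samples, after the mean of each operation was subtracted, were Myh9 (Pearson r 0.925), Shprh (0.922), Slf2 (0.919), Ehbp1l1 (0.903) and Ncoa3 (0.898). None of these is in the T cell lists used here, and with 7 to 30 counts of Cd3e per library they are given as a description only.

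No sex difference was called in the 10 genes. Of the 9 tested, 0 passed between female and male AVF mice, where 0.0226% of 22163 genes (5) passed, and 0 passed between female and male sham mice, where 0.0451% (10) passed, by edgeR's quasi-likelihood test. For the interaction of operation and sex the share over all genes was 0%, with 1069 genes at an unadjusted p value under 0.05. In each of the 3 comparisons 0 of the 9 genes had an unadjusted p value under 0.05, and DESeq2 called 0 of them as well. Cd274 averaged 13.7 ± 6.49 normalized CPM in AVF males and 12.7 ± 7.66 in AVF females, and 21.6 ± 6.84 and 24.8 ± 1.70 in sham males and females (SD, n = 3). Its log2 fold change was -0.66 (SE 0.43) within males and -0.97 (SE 0.43) within females, with edgeR adjusted p values of 0.461 and 0.195. The interaction of Cd274 was -0.34 (SE 0.60, edgeR adjusted p = 0.978). Pdcd1 averaged 0.497 ± 0.0389 in AVF males and 0.276 ± 0.289 in AVF females, and the log2 difference of female over male AVF mice was -0.76 (SE 0.95, edgeR adjusted p = 0.986).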

How the data were processed

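The deposited table gives expected counts per gene, which the authors estimated by strand with RSEM 1.3.3 and did not normalize. Before that, reads were cleaned (PRINSEQ, Trimmomatic 0.39) and mapped by STAR 2.7.7a to GRCm39 under an Ensembl annotation. Expected counts divide reads among similar genes, and the share of values that are not whole was 5.72% to 7.75% per library. Operation and sex came from the sample labels, and names of 54749 genes from GENCODE M39.

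Here counts were rounded to whole numbers, scaled by TMM (edgeR 4.0.16, R 4.3.3) and compared by the quasi-likelihood test, adjusting p values by Benjamini-Hochberg over every gene above 1 CPM in 2 or more of 12 samples. More than 12 counts in all were required for the sex comparisons and for scarce genes. The SE is the log2 fold change over the root of its F statistic. Ratios were log2 of counts with 0.5 added, compared over the 924 relabellings with scipy 1.17.1. DESeq2 1.42.0 was an alternative. The scripts were tested on simulated data. Libraries differed by far more than sampling noise, with a chi-square over its degrees of freedom of at least 36.8 within groups. Limits of 3 counts cover counting error only.

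Named were the 10 genes, up to 4 passing genes of each direction in each T cell list, and the 5 genes most like Cd3e and Cd274. Other genes were named where a result turned on them. Some genes of these lists are counted but not reported here by name. The genes and lists were chosen with earlier results of these data known. The study set 2 AVF mice apart as outliers, and their sample numbers match those the labels give AVF male 2 and AVF female 2. These were left out as an alternative and not compared as a group, which the labels do not name.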

Additional observations from a re-analysis of the deposited data

Results flagged for a closer look

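Il7r in Sham female 3, at 10.4 normalized CPM, lay far above the other 5 sham mice, its gap to the next being 0.725 of the range of the group, over the Dixon critical value of 0.625 for 6 samples. It was the only such sample in the 28 groups of 6 examined over the genes and ratios, and chance alone flags about 1 group in 20. The cause was not tested.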

How the results depend on the processing

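Between AVF and sham, 2190 genes passed, against 3402 with DESeq2, 1230 without AVF male 2 and AVF female 2, 783 within female mice, 147 within male mice, 754 with the brown fat level as a covariate, and 1330 to 2546 without 1 replicate each. With the wider filter 1852 passed, against 3197, 989, 490, 120, 660 and 955 to 2187 in the same order. Of the 10 genes examined here, 0 passed, 1 with edgeR's exact test, DESeq2 or the replicate block under the first filter, 1 with DESeq2 or the block under the wider one, and 0 to 1 without 1 replicate each. Female against male AVF gave 5 genes (45 with DESeq2, 5 to 7 without 1 replicate each), female against male sham 10 (146 with DESeq2, 18 in a fit on these 6 samples alone, 8 to 22), and the interaction 0 (3 with DESeq2, 0 to 0).

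Of 6 pairs of the same sex and number, 3 had a correlation of their deviations over 0.1 (range -0.16 to 0.19). Correlations this weak, over 3 mice per operation and sex, cannot settle whether the numbers in the labels pair the mice. With the number as a replicate block, 1980 genes passed, and Cd274 passed (log2 fold change -0.92, edgeR adjusted p = 0.0356), while Cd80 did not (0.97, edgeR adjusted p = 0.0629). 3 of the AVF samples correlated best with their own number.

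Signs near 0 turned. Cd3e had a log2 fold change of 0.035 within males, 0.17 with the brown fat level, and -0.33 to 0.13 without 1 replicate each. Cd4 had 0.058 within males and -0.31 to 0.0023, Cd8a 0.048 within females and -0.39 to 0.11, and Cd3d -0.085 within females. Ctla4 had 0.11 with sex as a covariate, 0.085 with the block, 1.13 within males, 0.84 with the brown fat level, and -0.30 to 0.49 without 1 replicate each. The Cd274 interaction ranged from -0.97 to 0.15 without 1 replicate each. The ratio of Cd8a to Cd4 differed by -0.17 to 0.51 without 1 replicate each, Foxp3 to Cd3e by 0.72 to 1.502, Pdcd1 to Cd3e by 1.37 to 2.22, Cd3e to Ptprc by -0.99 to -0.51, and Cd274 to Pecam1 by -0.95 to -0.55, and none of the 5 passed under any alternative run. The causes were not tested. Foxp3, Ctla4, Pdcd1 and Pdcd1lg2 had at most 13 counts in a library, which limits what could be detected for them.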
